A study of Homo sapiens with 16 samples.

Results

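The genes described here encode 10 proteins that bind m6A, a methyl mark on adenosine in RNA, and were chosen by name: YTHDF1, YTHDF2, YTHDF3, YTHDC1, YTHDC2, IGF2BP2, IGF2BP3, HNRNPA2B1, HNRNPC and ELAVL1. All 10 were among the 60564 genes of the deposited table, and all 10 were among the 16241 genes that entered the tests. THP-1 cells, a line from a human monocytic leukaemia, were used to follow RNA turnover with SLAM-seq. It compared ALKBH5 knockdown cells, labelled A5-KD, with control cells, labelled wild type, and the labels used here do not state how the knockdown was made. Both genotypes received 100 µM 4-thiouridine for 1 h, were washed, and were harvested after 0, 1.5, 4.5 or 7.5 h in medium with 10 mM uridine, the chase. There were 2 libraries for each genotype and time, 16 in all. The labels do not say whether replicates were grown separately, and if they were not, the p-values given here cover technical spread alone.

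SLAM-seq reads 4-thiouridine in RNA as T-to-C changes, so the conversion rate of a gene, given here in percent, is the share of its sequenced T bases read as C. During a chase it falls as labelled molecules are lost and new unlabelled ones take their place. Being a share, it does not say how much of an mRNA a cell holds. The table gives no coverage, so the depth behind a rate is unknown and no counting interval can be stated. No library without 4-thiouridine was used here, so the background rate of unlabelled RNA was not measured.

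Readers carry out the effects of m6A on an mRNA. The YTH proteins hold the methylated adenosine in an aromatic pocket of the YTH domain: YTHDF1, YTHDF2 and YTHDF3 act in the cytoplasm, where YTHDF2 recruits the CCR4-NOT deadenylase, YTHDC1 acts in the nucleus in splicing and export, and YTHDC2 is an RNA helicase. IGF2BP2 and IGF2BP3 bind through KH domains and are known to stabilise target mRNAs, HNRNPA2B1 and HNRNPC bind nuclear RNA at or near sites whose structure the mark changes, and ELAVL1 (HuR) binds AU-rich elements and is known to protect mRNAs from decay. ALKBH5 is one of the enzymes that remove m6A.

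At each time the median rate of tested genes was higher in both knockdown libraries than in both control libraries. Over the chase the medians ran from 0.532% to 1.19% in knockdown and from 0.250% to 0.556% in control. Between 2.39% and 12.9% of tested genes had a rate of 0 in a library. The table's single CPM column, whose library is not stated, listed the monocytic markers LYZ at 1276, CD68 at 74.2 and SPI1 at 48.4, with the other 5 of the 8 monocytic markers at 1.93 to 29.8. Among markers of other cell types HBB was at 0, and ALB, at 7.88, was the highest.

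The readers' own mRNAs differ in the short motifs of their 3' UTRs, taken here from 1 GENCODE 29 transcript per gene on hg38. GGACT is the core in which m6A most often lies, and ATTTA and the longer TATTTAT, which contains it, are pentamer and heptamer forms of the AU-rich element that ELAVL1 binds. Each was searched on the transcript strand only. The windows shown hold the first such site after the stop codon in 4 of the reader mRNAs with a GGACT, and in the 2 reader mRNAs with a TATTTAT. YTHDF2 and IGF2BP2 are shown as mRNAs whose rates fell in both genotypes, HNRNPA2B1 as the one whose rates rose, and ELAVL1 as the one with the most GGACT and TATTTAT. The sites are printed with the motif in capitals and 5' to 3' in DNA letters.
YTHDF2, chr1:28769020-28769044, plus strand: aagagaattaGGACTtttttcttaa
IGF2BP2, chr3:185645378-185645402, minus strand: aggcggccagGGACTctgccgaggc
HNRNPA2B1, chr7:26173172-26173196, minus strand: aggaagagaaGGACTggaggcagag
ELAVL1, chr19:7962013-7962037, minus strand: aaactcctcaGGACTgggatctggc
ELAVL1, chr19:7961864-7961888, minus strand: tgatggctgTATTTATctgtttatt
YTHDC2, chr5:113593502-113593526, plus strand: catcatgccTATTTATaaccactga

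A GGACT was found in the 3' UTR of 6 of the 10 transcripts, and 53.5% of 18919 coding genes had one. YTHDF2 had 2, the first of them 78 bases after its stop codon. Of 3' UTRs within 20% of its length 52.1% held at least 1 and 20.6% at least as many. ELAVL1 had 4 GGACT in its 4904-base 3' UTR, where 96.6% of 3' UTRs of like length held at least 1 and 46.8% at least as many. TATTTAT was found in 2 of the 10, and 28.9% of coding genes had one. ELAVL1, whose product binds such elements, had 5, and 4.5% of 3' UTRs of like length had at least as many. YTHDC2 had 1, where 38.8% of 3' UTRs of like length had at least 1. ATTTA was found in every reader transcript but that of YTHDF2, and 64.4% of coding genes had one. Among 3' UTRs of like length the share with an ATTTA ran from 32.1% for YTHDF3 to 98.7% for ELAVL1, and was 69.6% for YTHDF2. These matches describe the letters of the reference transcript. No methylation or binding was measured at them.

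The first question was how the rates of reader mRNAs differed between ALKBH5 knockdown and control. For 9 of the 10 both knockdown libraries lay above both control libraries at every one of the 4 times, and IGF2BP3 was the exception. Among all tested genes 40.5% were separated in this way at all times, and 71.1%, 74.3%, 68.2% and 58.9% at the successive times, where 9 readers were separated so at each. The difference between genotypes was estimated by limma on log2 of the rate plus a pseudocount of 0.05 percentage points, with time as a factor and Benjamini-Hochberg adjustment over all tested genes at 0.05. These 9 readers were higher in knockdown, against 69.6% of all tested genes, and 0 were lower. Among genes with a CPM of at least 5, to which 8 readers belong, 86.0% were higher, so the readers' count was close to the share of genes with such counts. Their median over the 10 was 1.16 log2, beside 1.02 for all tested genes, of which the middle 50% lay between 0.71 and 1.26. No reader was called as differing from the common shift. With every library centred on its median log2 rate, which took 1.05 log2 from each genotype effect, limma called 0 of the 10, and 1 (IGF2BP3) had an unadjusted p under 0.05, against 236 genes higher (1.45%) and 746 lower (4.59%). This depended on the CPM filter. With no CPM minimum 4 readers were called lower, YTHDF3 (−0.74), IGF2BP3 (−2.69), HNRNPA2B1 (−0.78) and HNRNPC (−0.65), and 7 of the 10 signs turned. The uncentred effects kept their values under that setting, such as 1.46 for YTHDF1 and 0.96 for HNRNPA2B1. What moved was the median taken from each library, which then covered more genes.

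**Figure D1:**
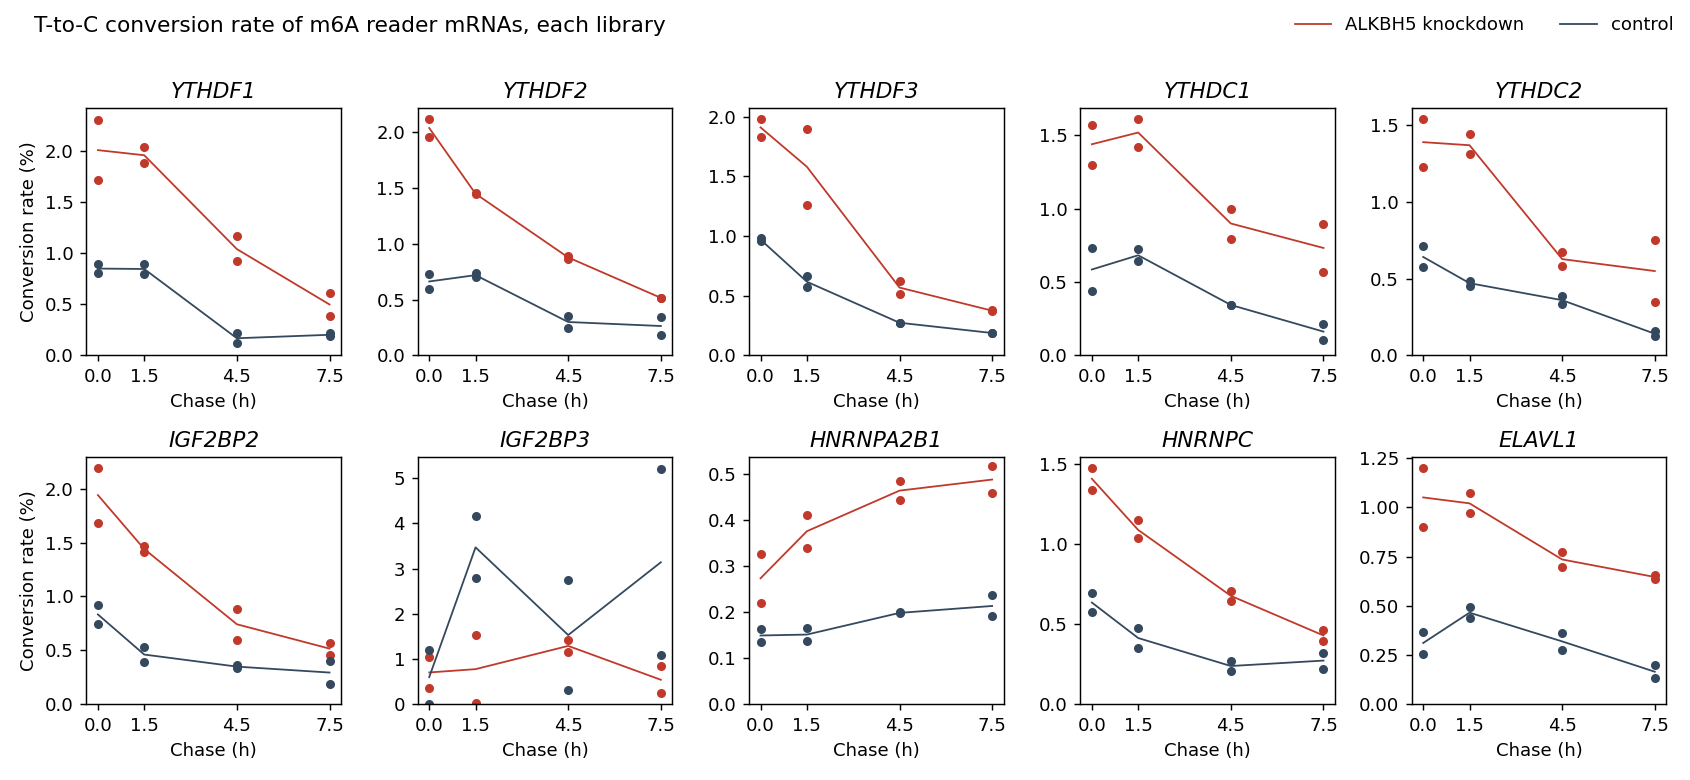
T-to-C conversion rate in percent against hours of chase for the 10 reader genes. Points are single libraries and lines join the means of 2, for ALKBH5 knockdown and control. The rates fall in most panels, HNRNPA2B1 climbs in both genotypes, and IGF2BP3 scatters between 0 and 5.20%.

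YTHDF2, the reader that recruits deadenylation, had knockdown rates of 1.96% and 2.12% before the chase, 1.46% and 1.45% after 1.5 h, 0.864% and 0.891% after 4.5 h and 0.513% and 0.517% after 7.5 h. The control libraries had 0.729% and 0.595%, 0.737% and 0.700%, 0.242% and 0.353%, and 0.182% and 0.341% in the same order. The groups did not overlap at any time, and the control rate stayed level until 1.5 h while the knockdown rate was already lower then than at 0 h. On the log2 scale knockdown was higher by 1.22 (SE 0.133, limma adjusted p = 1.5e-06), and by 0.17 when centred (adjusted p = 0.531).

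YTHDF1, which is known to promote translation of marked mRNAs, had knockdown rates of 2.31% and 1.72% before the chase, 2.04% and 1.88% after 1.5 h, 0.920% and 1.17% after 4.5 h and 0.382% and 0.611% after 7.5 h. Control cells gave 0.801% and 0.897%, 0.893% and 0.797%, 0.116% and 0.215%, and 0.215% and 0.186% in the same order. Most of the control fall lay between 1.5 and 4.5 h, where the mean dropped to 19.6% of its earlier value, against 53.2% in knockdown and a median of 73.6% for all tested genes in control. The ratio of knockdown to control was 6.31 at 4.5 h and between 2.32 and 2.48 at the other times. That ratio rests on the low control rates at 4.5 h, and the control mean at 7.5 h was 121% of that at 4.5 h. Centred, the effect at 4.5 h was 1.29 log2 and did not pass (limma adjusted p = 0.270). The CPM of YTHDF1 was 4.47. The genotype effect of YTHDF1 was 1.46 log2 (SE 0.240, limma adjusted p = 8.0e-05), and its centred effect of 0.41 did not pass (adjusted p = 0.374).

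YTHDF3, the third cytoplasmic paralogue, had knockdown rates of 1.83% and 1.98% before the chase, 1.26% and 1.90% after 1.5 h, 0.513% and 0.620% after 4.5 h and 0.378% and 0.368% after 7.5 h. The matching control rates were 0.955% and 0.984%, 0.569% and 0.664%, 0.270% and 0.273%, and 0.187% and 0.184% in the same order. These were the closest control replicates of the 10 genes at 0 h, with an SD of 2.13% of the mean. Knockdown exceeded control by 1.00 log2 (SE 0.105, limma adjusted p = 9.9e-07), at the 47.1 percentile of tested genes, and its sign turned when centred (−0.05, adjusted p = 0.834).

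YTHDC1, the nuclear reader, had knockdown rates of 1.57% and 1.30% before the chase, 1.42% and 1.61% after 1.5 h, 1.00% and 0.795% after 4.5 h and 0.569% and 0.895% after 7.5 h. In control cells the rates were 0.437% and 0.733%, 0.641% and 0.723%, 0.342% and 0.344%, and 0.107% and 0.215% in the same order. Neither genotype had a lower mean at 1.5 h than at 0 h, and the ratio of knockdown to control was largest at 7.5 h, at 4.55. The difference came to 1.38 log2 (SE 0.158, limma adjusted p = 2.3e-06; centred 0.33, adjusted p = 0.284).

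YTHDC2, the helicase, had knockdown rates of 1.54% and 1.23% before the chase, 1.44% and 1.31% after 1.5 h, 0.671% and 0.583% after 4.5 h and 0.346% and 0.751% after 7.5 h. Its control rates were 0.573% and 0.710%, 0.485% and 0.454%, 0.385% and 0.334%, and 0.155% and 0.126%. The groups did not overlap at any time. Its effect was 1.20 log2 (SE 0.194, limma adjusted p = 6.8e-05), and at 7.5 h its knockdown libraries stood apart from each other (SD 0.287 around a mean of 0.549%).

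IGF2BP2, the first of the KH-domain readers, had knockdown rates of 1.68% and 2.19% before the chase, 1.41% and 1.47% after 1.5 h, 0.596% and 0.887% after 4.5 h and 0.460% and 0.572% after 7.5 h. Its control rates were 0.923% and 0.743%, 0.529% and 0.393%, 0.361% and 0.337%, and 0.191% and 0.397%. The groups did not overlap at any time, and the largest ratio of knockdown to control was 3.12 at 1.5 h. The genotypes differed by 1.12 log2 (SE 0.152, limma adjusted p = 1.3e-05), at the 60.2 percentile of tested genes.

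IGF2BP3 did not pass and had the widest scatter of the 10. Its knockdown rates were 0.352% and 1.05% before the chase, 0.0218% and 1.53% after 1.5 h, 1.15% and 1.42% after 4.5 h and 0.839% and 0.243% after 7.5 h. Its control rates were 1.20% and 0 before the chase, 2.79% and 4.16% after 1.5 h, 0.313% and 2.74% after 4.5 h and 5.20% and 1.09% after 7.5 h. Replicates of control differed by more than the group means did at all times but 1.5 h, and both control libraries lay above both knockdown libraries at 1.5 and 7.5 h. The genotype effect was −0.95 log2 with a 95% interval from −2.85 to 0.95 (limma adjusted p = 0.351), so it was lower than that of all but 0.523% of tested genes without being distinguishable from 0. IGF2BP3 also had the fewest reads of the 10 by CPM, at 3.25, and the part of low coverage in its scatter was not tested.

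The hnRNP readers took the most reads of the set, with a CPM of 1582 for HNRNPA2B1 and 558 for HNRNPC, against 3.25 to 58.1 for the others. HNRNPC, whose protein packages nascent transcripts, had knockdown rates of 1.48% and 1.34% before the chase, 1.15% and 1.04% after 1.5 h, 0.647% and 0.708% after 4.5 h and 0.393% and 0.466% after 7.5 h. Controls had 0.577% and 0.695%, 0.353% and 0.475%, 0.205% and 0.272%, and 0.223% and 0.322% in the same order. The groups did not overlap at any time, and in control the mean was no lower at 7.5 h than at 4.5 h. The effect of genotype was 1.08 (log2, SE 0.113, limma adjusted p = 9.2e-07). The annotation names 9 HNRNPC pseudogenes, and 1 each of YTHDF1 and YTHDF2. How reads that fit more than 1 copy were counted is not given in the sources used here, so these values are uncertain to that extent.

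HNRNPA2B1, which binds nuclear RNA and primary microRNAs, had the lowest mean rate of the set at 0 h in both genotypes and the reverse time course. Its knockdown rates were 0.220% and 0.325% before the chase, 0.338% and 0.411% after 1.5 h, 0.443% and 0.483% after 4.5 h and 0.457% and 0.516% after 7.5 h. Rates in control were 0.135% and 0.162%, 0.136% and 0.166%, 0.197% and 0.199%, and 0.191% and 0.236% in the same order. Both genotypes climbed, to 178% of the 0 h mean in knockdown and 143% in control by 7.5 h, where all tested genes had medians of 50.6% and 53.8%. Over the chase knockdown was higher by 0.96 log2 (SE 0.0806, limma adjusted p = 9.9e-08; centred −0.09, adjusted p = 0.612). HNRNPA2B1 overlaps CBX3 and NFE2L3 on the opposite strand, and whether the counting used strand is not given in the sources used here.

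ELAVL1, the AU-rich element binding protein, had knockdown rates of 1.20% and 0.900% before the chase, 1.07% and 0.972% after 1.5 h, 0.772% and 0.697% after 4.5 h and 0.655% and 0.637% after 7.5 h. Its control libraries had 0.254% and 0.368%, 0.493% and 0.437%, 0.275% and 0.364%, and 0.197% and 0.133% in the same order. The control mean at 1.5 h was 149% of that at 0 h, whereas the knockdown mean was at 97.3%. Knockdown lay above control by 1.37 log2 (SE 0.148, limma adjusted p = 1.3e-06; centred 0.32, adjusted p = 0.265).

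**Figure D2:**
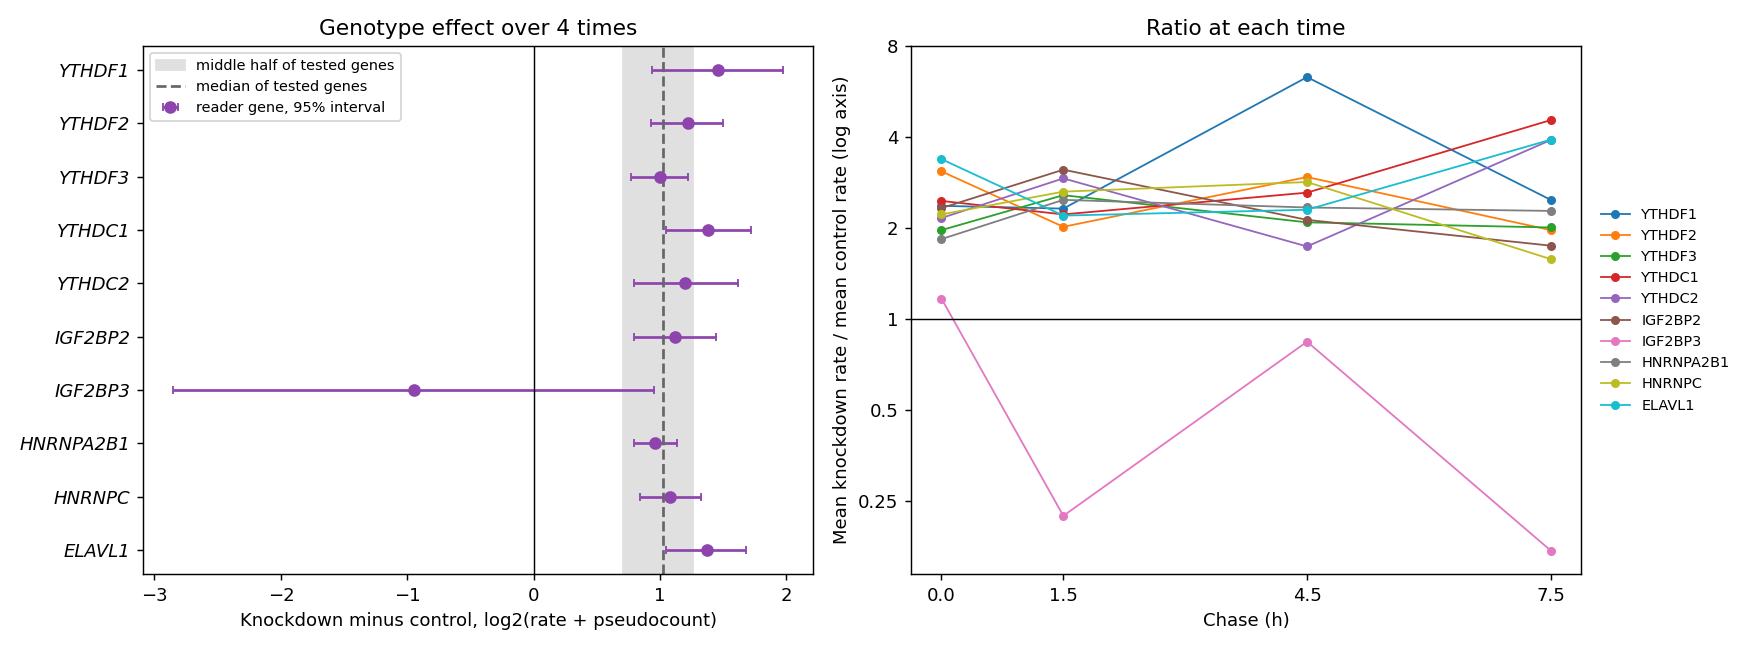
Left, knockdown minus control on the log2(rate + pseudocount) scale for each reader with its 95% interval, beside the median of all tested genes (1.02) and their middle 50% (0.71 to 1.26). Right, the ratio of mean knockdown to mean control rate at each time on a log axis, where 9 readers stay above 1 throughout and IGF2BP3 does not.

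In order of mean rate at 0 h the knockdown libraries ran from YTHDF2 at 2.04% ± 0.110 (SD, n = 2), YTHDF1 at 2.01% ± 0.414, IGF2BP2 at 1.94% ± 0.361 and YTHDF3 at 1.91% ± 0.106, which lay within their spread, to ELAVL1 at 1.05% ± 0.213, IGF2BP3 at 0.703% ± 0.496 and HNRNPA2B1 at 0.273% ± 0.0744. YTHDC1 at 1.44% ± 0.191, HNRNPC at 1.41% ± 0.104 and YTHDC2 at 1.39% ± 0.219 formed a middle group that did not differ beyond its spread. In control YTHDF3 was highest at 0.969% ± 0.0207, followed by YTHDF1 at 0.849% ± 0.0681 and IGF2BP2 at 0.833% ± 0.127, and HNRNPA2B1 was again lowest at 0.149% ± 0.0185. ELAVL1 at 0.311% ± 0.0808 stood between it and the other readers, of which YTHDF2, YTHDC2, HNRNPC, IGF2BP3 and YTHDC1 lay between 0.585% and 0.662%.

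At single times 9 readers were higher in knockdown at 0 h, against 35.6% of tested genes, 9 at 1.5 h against 38.9%, 8 at 4.5 h against 38.3%, and 7 at 7.5 h against 33.5% (limma, group means). Among genes with a CPM of at least 5 these shares were 56.0%, 61.3%, 58.3% and 50.5%. IGF2BP3 was never called. YTHDC2 did not pass at 4.5 h (0.72 log2, limma adjusted p = 0.150), nor did YTHDF1 (1.10, adjusted p = 0.0669) and IGF2BP2 (0.78, adjusted p = 0.0601) at 7.5 h. Those 7.5 h effects passed among genes with rates above 0 in all libraries (adjusted p = 0.0357 for YTHDF1 and 0.0436 for IGF2BP2). Near the threshold were the calls of YTHDF1 at 0 h (adjusted p = 0.0482) and 1.5 h (0.0478) and of YTHDC2 at 0 h (0.0487). Each of these ended with a pseudocount of 0.02, with no CPM minimum and with a replicate block. The counts leaned on single libraries. Without knockdown 0 h replicate 2 the count at 0 h was 5. The count at 1.5 h was 5 without control 1.5 h replicate 2 and 4 without knockdown 1.5 h replicate 1. That at 7.5 h was 4 without knockdown 7.5 h replicate 2. A fit with one library left in a group assumed that it varied like the other groups. At each time 0 of the 10 were called when centred. The genotype effect over the whole chase passed for the same 9 readers whichever library was left out, with values from 0.92 to 1.55.

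The second question was how fast the rates fell during the chase. In knockdown 7 of the 10 readers fell and 1, HNRNPA2B1, rose, against 37.9% and 4.06% of all tested genes. In control 8 fell and 1, HNRNPA2B1, rose, against 34.4% and 3.45%. The median slope of the readers was −0.21 log2 per hour in knockdown and −0.18 in control, beside −0.13 and −0.11 over all tested genes. Among genes with a CPM of at least 5, to which 8 readers belong, the share that fell was 48.8% in knockdown and 44.0% in control. Halving times were computed with the pseudocount included and are therefore longer than for the bare rate. Relative to the common fall, that is after centring, 2 readers fell and 1 rose in knockdown, against 8.62% and 17.7% of tested genes, and 1 fell and 1 rose in control, against 9.46% and 17.6%.

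YTHDF3 fell by 0.32 log2 per hour in knockdown (SE 0.0314, limma adjusted p = 1.7e-06), a halving time of 3.17 h with a 95% interval of 2.62 to 4.03 h. In control YTHDF3 fell by 0.28 (SE 0.0314, adjusted p = 5.8e-06), a halving time of 3.52 h with an interval of 2.85 to 4.60 h. YTHDF3 was the only reader whose fall was called as exceeding the common fall in both genotypes. Its centred slopes were −0.16 in knockdown (SE 0.0292, limma adjusted p = 5.0e-04) and −0.15 in control (SE 0.0292, adjusted p = 0.00127). The control call ended with the 0 h libraries left out (−0.12, adjusted p = 0.110). With no CPM minimum both calls ended, at −0.16 in knockdown (adjusted p = 0.159) and −0.01 in control (adjusted p = 0.907). Centring took −0.150 log2 per hour from each knockdown slope and −0.136 from each control slope.

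YTHDF1 fell by 0.27 log2 per hour in knockdown (SE 0.0645, limma adjusted p = 0.00311) and by 0.30 in control (SE 0.0645, adjusted p = 0.00169), with halving times of 3.70 h and 3.33 h. YTHDF2 fell by 0.25 in knockdown (SE 0.0333, adjusted p = 2.6e-05) and by 0.20 in control (SE 0.0333, adjusted p = 2.6e-04), with halving times of 4.04 h and 5.11 h. The intervals of the 3 paralogues' slopes overlapped within each genotype. Centred, YTHDF1 did not pass, at −0.12 in knockdown (SE 0.0612, limma adjusted p = 0.164) and −0.16 in control (SE 0.0612, adjusted p = 0.0573). Its centred control slope did pass with a pseudocount of 0.2 (adjusted p = 0.0498). It also passed among genes with rates above 0 in all libraries (adjusted p = 0.0300) and without the variance trend (adjusted p = 0.0321). YTHDF2 passed when centred in knockdown (−0.10, adjusted p = 0.0325) but not in control (−0.06, adjusted p = 0.178). The centred knockdown call ended without any of the knockdown 0 h and 7.5 h libraries, at −0.09 and adjusted p = 0.0853 without 0 h replicate 1, −0.09 and 0.111 without 0 h replicate 2, −0.10 and 0.0872 without 7.5 h replicate 1, and −0.10 and 0.0826 without 7.5 h replicate 2.

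YTHDC1 fell by 0.14 log2 per hour in knockdown (SE 0.0397, limma adjusted p = 0.00782) and by 0.23 in control (SE 0.0397, adjusted p = 2.5e-04), with halving times of 6.90 h and 4.26 h. Its knockdown call ended without knockdown 7.5 h replicate 1 (−0.12, adjusted p = 0.0656). YTHDC2 fell by 0.20 in knockdown (SE 0.0468, adjusted p = 0.00241) and by 0.23 in control (SE 0.0468, adjusted p = 9.9e-04), with halving times of 4.92 h and 4.28 h. IGF2BP2 fell by 0.25 in knockdown (SE 0.0378, adjusted p = 8.5e-05) and by 0.17 in control (SE 0.0378, adjusted p = 0.00213), with halving times of 4.04 h and 5.87 h. The control slope of IGF2BP2 did not pass with the 0 h libraries left out (−0.10, adjusted p = 0.159). After centring none of YTHDC1, YTHDC2 and IGF2BP2 passed in either genotype, with adjusted p from 0.0682 to 0.937. The centred knockdown slope of IGF2BP2 did pass with a pseudocount of 0.2 (−0.09, adjusted p = 0.0309), with a CPM minimum of 5 (−0.10, adjusted p = 0.0493) and without control 7.5 h replicate 2 (adjusted p = 0.0362). The centred control slope of YTHDC1 passed with the 0 h libraries left out (−0.17, adjusted p = 0.0325) and without control 0 h replicate 1 (−0.14, adjusted p = 0.0112).

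HNRNPC fell by 0.21 log2 per hour in knockdown (SE 0.0296, limma adjusted p = 3.3e-05) and by 0.15 in control (SE 0.0296, adjusted p = 0.00104), with halving times of 4.67 h and 6.80 h. Its control slope did not pass with the 0 h libraries left out (−0.09, adjusted p = 0.121). HNRNPA2B1 rose by 0.09 in knockdown (SE 0.0207, adjusted p = 0.00184) and by 0.06 in control (SE 0.0207, adjusted p = 0.0306). When centred these were 0.24 in knockdown (adjusted p = 4.2e-07) and 0.20 in control (adjusted p = 6.2e-06), a rise relative to the typical gene. The uncentred control call ended at 0.05 without control 0 h replicate 1 (adjusted p = 0.0904), control 1.5 h replicate 1 (adjusted p = 0.0574) or control 7.5 h replicate 2 (adjusted p = 0.134). With the 0 h libraries left out neither uncentred slope passed, at 0.06 in knockdown (adjusted p = 0.0702) and 0.06 in control (adjusted p = 0.0523).

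ELAVL1 had a slope of −0.10 log2 per hour in knockdown that did not pass (SE 0.0403, limma adjusted p = 0.0693) and fell by 0.12 in control (SE 0.0403, adjusted p = 0.0258), a halving time of 8.24 h with a 95% interval from 4.84 to 27.8 h. Its control call ended without control 7.5 h replicate 1 (−0.12, adjusted p = 0.0655) or replicate 2 (−0.08, adjusted p = 0.187). The knockdown slope passed without control 0 h replicate 1 (−0.10, adjusted p = 0.0390). IGF2BP3 did not pass in knockdown (0.04, adjusted p = 0.899) or in control (0.26, 95% interval −0.19 to 0.72, adjusted p = 0.367).

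**Figure D3:**
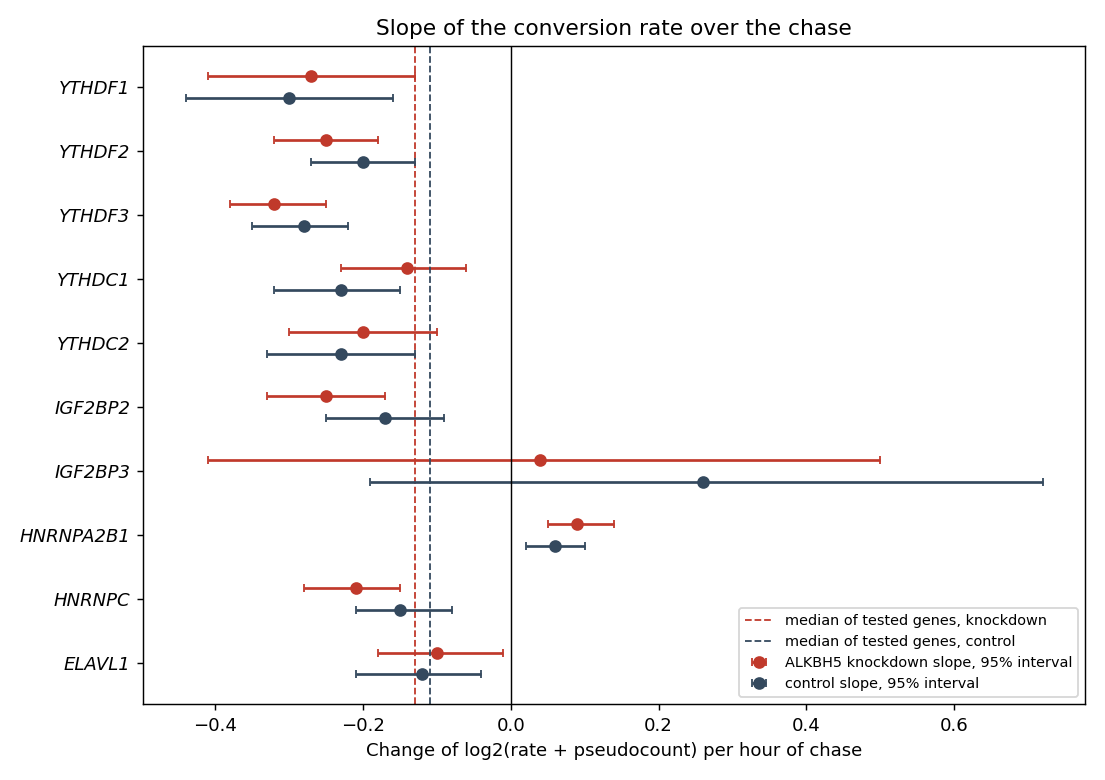
Change of log2(rate + pseudocount) per hour of chase with 95% intervals, for ALKBH5 knockdown and control, with the median of all tested genes as dashed lines (−0.13 and −0.11). The intervals of the YTHDF genes lie below 0, those of HNRNPA2B1 above 0, and those of IGF2BP3 cross it.

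The readers were ordered by slope from the steepest fall up to ELAVL1. In neither genotype did a reader differ from the next by more than 2 standard errors of the difference. Only neighbours were compared, so this does not show that readers further apart were alike. In knockdown the slope intervals of YTHDF3 (−0.38 to −0.25 log2 per hour) and ELAVL1 (−0.18 to −0.01) did not overlap. Nor did those in control, at −0.35 to −0.22 for YTHDF3 and −0.21 to −0.04 for ELAVL1. The intervals of the other readers in this order overlapped that of ELAVL1. In control the step from ELAVL1 to HNRNPA2B1 was 0.18 log2 per hour (SE 0.0453). In knockdown IGF2BP3, with an SE of 0.214, lay between ELAVL1 at −0.10 (SE 0.0403) and HNRNPA2B1 at 0.09 (SE 0.0207). The steps on either side of IGF2BP3 could therefore not show whether ELAVL1 and HNRNPA2B1 differ. Their own slope intervals in knockdown did not overlap, at −0.18 to −0.01 for ELAVL1 and 0.05 to 0.14 for HNRNPA2B1. By the mean rate left at 7.5 h as a share of that at 0 h, YTHDF3 kept least in both genotypes, 19.5% in knockdown and 19.1% in control. YTHDC1 kept 50.9% in knockdown and 27.5% in control, and YTHDF2 kept 25.2% in knockdown and 39.5% in control. ELAVL1 kept 61.5% and 53.0%.

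The third question was whether the slopes differed between genotypes. By limma none of the 10 readers had a slope difference past the threshold, and none had an unadjusted p under 0.05. Over all tested genes 0 were called, while 1269 had an unadjusted p under 0.05. The readers' differences, knockdown slope minus control slope, ran from −0.22 for IGF2BP3 to 0.09 for YTHDC1. That of YTHDC1 had a 95% interval from −0.03 to 0.21 log2 per hour (adjusted p = 0.745). That of IGF2BP2 was −0.08 (−0.19 to 0.04, adjusted p = 0.764), that of HNRNPC −0.07 (−0.16 to 0.02, adjusted p = 0.743) and that of YTHDF2 −0.05 (−0.15 to 0.05, adjusted p = 0.838). YTHDF3 was at −0.03 (−0.13 to 0.06) and HNRNPA2B1 at 0.03 (−0.03 to 0.10). A p that misses the threshold does not show that the slopes were alike, and the intervals give the differences these libraries allow.

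Of 15 writer and eraser genes 15 were higher in knockdown, where 69.6% of all tested genes were. Of these 11 fell and 1, METTL5, rose in knockdown, against 37.9% and 4.06% of all tested genes, and 11 fell and 0 rose in control, against 34.4% and 3.45%. Among genes with a CPM of at least 5, 86.0% were higher, and 48.8% fell in knockdown and 44.0% in control. How many genes of this list and of those below reach that CPM is not given here. WTAP, a subunit of the methyltransferase complex, fell by 0.27 log2 per hour in knockdown and by 0.29 in control (limma adjusted p = 4.7e-07 and 3.3e-07). CBLL1, of the same complex, fell by 0.23 and 0.31, and the demethylase FTO by 0.26 and 0.25. METTL14, the RNA-binding partner of the catalytic subunit, fell by 0.23 in knockdown and 0.18 in control. METTL3, the catalytic subunit, fell by 0.17 in knockdown (adjusted p = 0.00758) and had −0.04 in control (adjusted p = 0.518), with a slope difference of −0.13 that did not pass (adjusted p = 0.688). ALKBH5 itself fell by 0.54 in knockdown and 0.26 in control (adjusted p = 4.3e-05 and 0.0145), with a slope difference of −0.28 that did not pass (adjusted p = 0.544). Its rate does not measure its abundance and so does not test the knockdown.

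Of 12 other proposed readers 10 were higher in knockdown, beside the 69.6% of all tested genes and 86.0% of those with a CPM of at least 5. In knockdown 5 of them fell, and in control 4 fell, near the 37.9% and 34.4% of all tested genes, with 0 rising in either. SND1, a nuclease-domain protein, fell by 0.32 in knockdown and by 0.23 in control, and the initiation factor subunits EIF3H by 0.14 and 0.17 and EIF3A by 0.20 and 0.13. Of 8 paralogues of the readers 6 were tested. Of these 5 were higher in knockdown and 2 fell in each genotype, beside the same shares. RALY, related to HNRNPC, fell by 0.12 in knockdown and 0.16 in control, and HNRNPA0 by 0.15 and 0.22. ELAVL2, a relative of ELAVL1, did not pass, at −0.24 in knockdown and −0.21 in control. HNRNPA1 and HNRNPA3, close relatives of HNRNPA2B1, rose relative to the common fall in both genotypes. HNRNPA3 rose by 0.18 in knockdown and 0.17 in control (centred, limma adjusted p = 2.3e-04 and 4.4e-04), and HNRNPA1 by 0.12 and 0.16 (adjusted p = 0.0341 and 0.00596). The other paralogues, HNRNPA0 among them, were not called in that test. Of all tested genes 17.7% rose so in knockdown and 17.6% in control, and 25.8% and 25.2% of those with a CPM of at least 5.

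The partners through which readers act in decay, splicing and export held 23 genes in 24 entries of the table. Of the 24 entries 22 were higher in knockdown, and 15 fell and 1, RPP30, rose in knockdown, while 12 fell in control, beside 69.6% higher and 37.9% and 34.4% falling among all tested genes. Among genes with a CPM of at least 5 these shares were 86.0%, 48.8% and 44.0%. CNOT2, a subunit of the deadenylase that YTHDF2 recruits, fell by 0.29 log2 per hour in knockdown and 0.28 in control (limma adjusted p = 2.1e-05 and 3.5e-05). CNOT4, its ubiquitin ligase subunit, fell by 0.36 and 0.27. MATR3, a nuclear RNA-binding protein, fell by 0.19 and 0.23 in the entry ENSG00000280987. PABPC1, the cytoplasmic poly(A)-binding protein, was lower than the common shift between genotypes when centred (−0.44, adjusted p = 1.1e-04) and SRSF10, a splicing factor that YTHDC1 binds, was higher (0.33, adjusted p = 0.0456). In the other lists PRRC2A, a proposed reader (−0.70, adjusted p = 0.00930), and TRMT112, the partner of METTL5 (−0.24, adjusted p = 0.0149), were lower in the same test, and no other gene of the lists was called.

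The genes with the most similar time course were sought among 7787 well-expressed genes with a rate above 0 in all 16 libraries, by the root mean square difference of log2 rates after taking away each gene's mean. HNRNPA2B1 lay closest to SET, at 0.110 log2, and to ACTB at 0.117, against a median of 0.717 over all candidates. YTHDF2 lay closest to RIC8B at 0.149 and NSRP1 at 0.163, YTHDF3 to RLF at 0.166 and DENND4A at 0.172, and YTHDF1 to VAPB at 0.275 and RBM26 at 0.305. IGF2BP2 lay closest to UGGT2 at 0.144 and LPP at 0.187, HNRNPC to DDX60L at 0.169 and MAP4 at 0.172, and YTHDC2 to SUPT20H at 0.167 and then to TFB1M. YTHDC1 lay closest to the pseudogene NSRP1P1 at 0.219 and to CCDC59 at 0.228, and ELAVL1 to ZNF8-ERVK3-1 at 0.217 and CSNK2A2 at 0.221. No candidate came near IGF2BP3, whose closest were TSPAN4 at 1.49 and PTGR2 at 1.51. With a CPM of 3.25, under the candidates' minimum of 9.66, and a control library at 0, IGF2BP3 would not itself have been a candidate. Genes as sparse as it were therefore not compared. Among the readers themselves IGF2BP2 and HNRNPC were the closest pair, at 0.280, ahead of YTHDF2 and HNRNPC at 0.284, and YTHDF1 was 0.422 from YTHDF2. The 16 libraries are shared by all of these distances.

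On hg38 the 10 genes lie on 9 chromosomes. YTHDF1 (ENSG00000149658) spans 63195429 to 63216234 on chromosome 20, YTHDF2 (ENSG00000198492) spans 28736621 to 28769775 on chromosome 1 and YTHDC1 (ENSG00000083896) spans 68310387 to 68350089 on chromosome 4. HNRNPA2B1 (ENSG00000122566) spans 26173057 to 26201529 and IGF2BP3 (ENSG00000136231) 23310209 to 23470467, both on chromosome 7. IGF2BP3 overlaps MALSU1 on the opposite strand, and IGF2BP2 and ELAVL1 each overlap an antisense gene there. T made up between 21.7% of the bases of the IGF2BP2 transcript and 29.6% of those of YTHDC2, against a median of 24.5% over all coding genes.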

How the data were processed

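The 16 libraries of poly(A) RNA came as 1 deposited table, in which the authors gave every gene and library a fraction from 0 to 1. The values and the assay identify it as a T-to-C conversion rate, shown here in percent. The submitters' processing notes name HISAT2 2.1.0, CASAVA and the hg38 build, while the annotation, the strand setting and the tool behind the rates are not stated in what was used. Control columns start with C, the initial of control, and the remaining columns, starting with S, were taken as knockdown by elimination. The authors also deposited a CPM column for no stated library, used for filtering and for the variance trend.

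Tests covered 16241 genes, those at CPM 1 or more whose rate exceeded 0 in some library. They used limma 3.58.1 (R 4.3.3) on log2(rate in percent + 0.05), and let the variance follow log2(CPM + 0.01), with p-values adjusted by Benjamini-Hochberg. Folds on this scale understate changes of low rates. The tests were tried on simulated data. Alternatives were other pseudocounts and filters, no trend, a replicate term, no 0 h libraries and each library left out. Members and lists were chosen with earlier results of these data known. Besides the members, ALKBH5, FTO, METTL3, METTL14 and WTAP are named, with up to 3 genes per list with the smallest adjusted p in the control slope. METTL5, RPP30, HNRNPA1, HNRNPA3, PABPC1, SRSF10, PRRC2A and TRMT112 were picked after their values were seen. Positions and motifs are from GENCODE 29. The value of 1 marker of another cell type is not reported here.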

Additional observations from a re-analysis of the deposited data

How the results depend on the processing

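Depth behind the rates is unknown, so no rate has a stated counting precision. The count of readers higher in knockdown over the chase was 9 in every alternative run except a CPM minimum of 5, which left 8 readers to test and called 8. Centring brought the counts at the 4 times to 0, where the uncentred counts were 9, 9, 8 and 7. It turned the sign for YTHDF3 (−0.10) and HNRNPA2B1 (−0.36) at 0 h, for YTHDF2 (−0.15), YTHDC1 (−0.02), HNRNPA2B1 (−0.04) and ELAVL1 (−0.06) at 1.5 h, for YTHDF3 (−0.15), YTHDC2 (−0.36), IGF2BP2 (−0.12), IGF2BP3 (−0.68) and HNRNPA2B1 (−0.04) at 4.5 h, and for YTHDF2 (−0.04), YTHDF3 (−0.10), IGF2BP2 (−0.17) and HNRNPC (−0.36) at 7.5 h. With no CPM minimum the centred genotype effect was called in 4 readers against 0, and was −0.28 for YTHDF1, −0.52 for YTHDF2, −0.35 for YTHDC1, −0.54 for YTHDC2, −0.62 for IGF2BP2, −0.65 for HNRNPC and −0.37 for ELAVL1. Under the same setting 1 centred slope was called in knockdown (3 in the report) and 1 in control (2 in the report), and centred control slopes were 0.07 for YTHDF2, 0.04 for YTHDC1 and YTHDC2, 0.10 for IGF2BP2 and 0.12 for HNRNPC. The uncentred genotype effects of the readers kept their values under that setting, while the medians used for centring were taken over more genes. Why those medians differ was not tested.

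Without the 0 h libraries the control slope of IGF2BP3 was −0.08, the centred control slopes were 0.03 for IGF2BP2, 0.04 for HNRNPC and −0.08 for ELAVL1, the centred knockdown slope of YTHDC1 was −0.01, and the slope differences were −0.01 for YTHDF1 and HNRNPA2B1 and 0.18 for IGF2BP3. With a pseudocount of 0.2 the slope differences were −0.01 for YTHDF1 and YTHDC2 and −3.2e-04 for ELAVL1. Over all genes the calls in the knockdown slope were 4007 without 0 h against 6810, those in the control slope 3074 against 6148, and those in the centred genotype effect 1668 with a pseudocount of 0.2 and 5781 with no CPM minimum, against 982.

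Leaving out 1 library at a time gave counts of 5 to 9 at 0 h, 4 to 9 at 1.5 h, 4 to 8 at 7.5 h and 2 to 5 for the centred knockdown slope (5 without control 7.5 h replicate 2). Values that changed sign ranged from −6.0e-04 to 0.17 for IGF2BP2 and −0.02 to 0.11 for HNRNPC in the centred genotype effect, and from −0.91 to 3.74 at 0 h and −1.07 to 1.87 at 4.5 h for IGF2BP3. IGF2BP3 slopes ranged from −0.06 to 0.17 in knockdown and −0.0048 to 0.38 in control. The centred knockdown slope of YTHDC1 ranged from −0.03 to 0.03, and centred control slopes from −0.09 to 0.0013 for IGF2BP2, −0.05 to 0.01 for HNRNPC and −0.03 to 0.06 for ELAVL1. Slope differences ranged from −0.03 to 0.07 for YTHDC2, −0.34 to 0.05 for IGF2BP3 and −0.02 to 0.07 for ELAVL1.

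Replicate numbers showed no shared effect across groups, with 28 correlations of replicate differences between groups between −0.0239 and 0.0396. With noisy rates this cannot show that libraries of the same number were prepared apart. With a replicate block the counts were 9 over the chase, 7, 8, 8 and 7 at the 4 times, 8 for the knockdown slope and 9 for the control slope.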
